A study of Mus musculus with 3 samples.

Results

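The 7SL RNA, the RNA listed as 4.5SRNA and the proto-B1 (PB1) repeats were treated as a group around 7SL RNA, and their reads were followed through 3 RNA immunoprecipitation sequencing (RIP-seq) libraries of mouse hippocampus. Members were taken by name: 7SLRNA, 4.5SRNA, and every name that starts with PB1, which gave PB1, PB1D7, PB1D9, PB1D10 and PB1D11. These are 7 of the 18484 repeat names listed in the deposited count tables. In RIP-seq, an antibody is used to pull RNA out of a lysate, and that RNA is sequenced. PS19 mice gave one library with an antibody to ZBP1 (the ZBP1 library) and one with an antibody to ZNA (the ZNA library of PS19, or PS19 ZNA), and wild-type mice gave one with the ZNA antibody (the WT library). All mice were aged 9 months and on a C57BL/6 background. PS19 mice carry a mutant human tau transgene, which the mouse prion promoter drives, and they develop tau pathology. ZBP1 is an innate immune sensor of nucleic acids in the left-handed Z form, for which ZNA stands. Whether a library pools several mice was not given in the labels. The names are those of repeats, so the tissue could not be checked against marker genes. There was 1 library per group, and no input or isotype-control library was used here, so no value has a replicate error and no test of a condition was possible. Intervals are exact 95% intervals of counting error unless named otherwise, and reads without molecular identifiers are not independent molecules. Intervals of levels can overlap where the interval of their ratio excludes no difference, so overlap alone does not mean equal levels.

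7SL RNA is the RNA backbone of the signal recognition particle, which brings ribosomes making secreted and membrane proteins to the endoplasmic reticulum. RNA polymerase III makes it in every cell. A processed copy of 7SL RNA gave rise to the short interspersed elements (SINEs) of the Alu kind in primates and the B1 kind in rodents, and PB1 names stand for the early, proto-B1 members from which the B1 repeats of mouse descend. The 4.5S RNAs are small polymerase III transcripts of rodents. One of them is related to B1 and another to the B2 SINE, and the name in the tables does not say which is meant. In RefSeq (GRCm38.p6) the mouse 7SL genes are Rn7s1 and Rn7s2, and a 4.5S gene is listed as Rn4.5s. A count on a name sums over all its genomic copies, so no position, strand or single gene can be given for any value. Copies of 7SL RNA, its pseudogenes, PB1 and B1 share sequence, so reads may move between these names, depending on how reads with many matches were counted. Lengths were not part of the tables, so levels were compared between libraries and not between names.

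Most reads in each library lay on the names LSU-rRNA_Hsa and SSU-rRNA_Hsa, the large and small ribosomal RNAs. Totals over all names were 1425383 reads for the ZBP1, 2918985 for the PS19 ZNA and 3234786 for the WT library, of which 5.22%, 10.6% and 4.49% lay outside these rRNA names. Levels and ratios are therefore given both per 1000000 reads of the library (CPM) and per 1000000 reads outside rRNA (CPM outside rRNA). The 7 members together held 355, 592 and 254 reads in these libraries, and all 7 had reads in each library. A floor of 3 reads, a set value and not an end of the intervals used here, corresponds to 2.10, 1.03 and 0.927 CPM.

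As shares of the reads outside rRNA, the 7 names took 0.477% of the ZBP1 library (95% Wilson interval 0.430 to 0.529%). They took 0.192% of the ZNA library of PS19 (0.177 to 0.208%) and 0.175% of the WT library (0.155 to 0.198%). On this scale the ZBP1 library was thus above both ZNA libraries, whose intervals overlapped. Per library total the 7 names stood at 249 CPM with ZBP1, 203 CPM with ZNA in PS19 and 78.5 CPM in WT. There the ZNA library of PS19 lay nearer to the ZBP1 library than to the WT library. In bulk tissue, fewer cells of a type and less RNA per cell cannot be told apart, and without an input neither can the amount of an RNA in the lysate and its share brought down. The sum hides 3 different patterns, those of 7SLRNA, of 4.5SRNA and of the PB1 names.

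7SLRNA had 17 reads in the ZBP1 library, 118 in the ZNA library of PS19 and 98 in the WT library. This was 11.9 CPM (6.95 to 19.1), 40.4 CPM (33.5 to 48.4) and 30.3 CPM (24.6 to 36.9). The ZBP1 library was the lowest, and the intervals of the ZNA libraries overlapped. In CPM outside rRNA, 7SLRNA stood at 228 (133 to 365) with ZBP1, 382 (316 to 458) with ZNA in PS19 and 674 (547 to 822) in WT. On this scale the WT library was the highest, and the intervals of the PS19 libraries overlapped.

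4.5SRNA had 60 reads in the ZBP1 library, 142 in the ZNA library of PS19 and 26 in the WT library. This was 42.1 CPM (32.1 to 54.2), 48.6 CPM (41.0 to 57.3) and 8.04 CPM (5.25 to 11.8). Both PS19 libraries lay above the WT library, and their own intervals overlapped. In CPM outside rRNA the values were 806 (615 to 1037), 460 (388 to 542) and 179 (117 to 262). The order of the libraries on that scale was the opposite of that of 7SLRNA.

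The PB1 names together had 278 reads in the ZBP1 library, 332 in the ZNA library of PS19 and 130 in the WT library. Their summed level was 195.0 CPM (173 to 219), 114 CPM (102 to 127) and 40.2 CPM (33.6 to 47.7), with no overlap of intervals. In CPM outside rRNA it was 3733 (3307 to 4198), 1076 (963 to 1198) and 894 (747 to 1062). The ZBP1 library stayed apart on that scale, while the intervals of the ZNA libraries overlapped.

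PB1D10 carried the most PB1 reads in every library, with 120 reads (84.2 CPM) in the ZBP1 library, 138 (47.3 CPM) in the ZNA library of PS19 and 52 (16.1 CPM) in the WT library. PB1D9 had 60, 80 and 40 reads in the same order, or 42.1, 27.4 and 12.4 CPM. PB1D7 had 53, 59 and 25 reads, or 37.2, 20.2 and 7.73 CPM. In CPM all of these were ordered alike, with the ZBP1 library highest and the WT library lowest, although for PB1D9 the intervals of the PS19 libraries overlapped (32.1 to 54.2 and 21.7 to 34.1 CPM). The name PB1 itself had 25, 40 and 8 reads, or 17.5, 13.7 and 2.47 CPM. PB1D11 had 20, 15 and 5 reads, or 14.0, 5.14 and 1.55 CPM, and its 20 reads over both ZNA libraries only just met the minimum of 20 reads for a comparison. These less covered names had the same order of libraries per library total, but intervals overlapped for PB1 between the PS19 libraries (11.4 to 25.9 and 9.79 to 18.7 CPM) and for PB1D11 between the ZNA libraries (2.88 to 8.48 and 0.502 to 3.61 CPM).

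In CPM outside rRNA, PB1D10 stood at 1611 with ZBP1, 447 with ZNA in PS19 and 358 in WT, and PB1D7 at 712, 191 and 172. PB1D9 had 806, 259 and 275, with the WT library slightly above the ZNA library of PS19. The values of PB1 were 336, 130 and 55.03, and those of PB1D11 269, 48.6 and 34.4. For each of the 5 names the interval of the ZBP1 library lay above both others, and the intervals of the ZNA libraries overlapped. For PB1, however, the interval of the ratio of PS19 over WT on this scale (1.09 to 5.83) lay above 1.

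The make-up of the PB1 reads was also compared between the 3 libraries. PB1D10 took 43.2% of them in the ZBP1 library (95% Wilson interval 37.5 to 49.0%), 41.6% in the ZNA library of PS19 (36.4 to 46.9%) and 40.0% in the WT library (32.0 to 48.6%). PB1D7 took 19.1%, 17.8% and 19.2%. PB1D9 took 21.6% (17.2 to 26.8%), 24.1% (19.8 to 29.0%) and 30.8% (23.5 to 39.2%), PB1 9.0%, 12.0% and 6.2%, and PB1D11 7.2%, 4.5% and 3.8%. For each of the 5 names, the Wilson intervals of the 3 libraries overlapped. With so few reads, overlap does not show that the shares were the same.

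**Figure D1:**
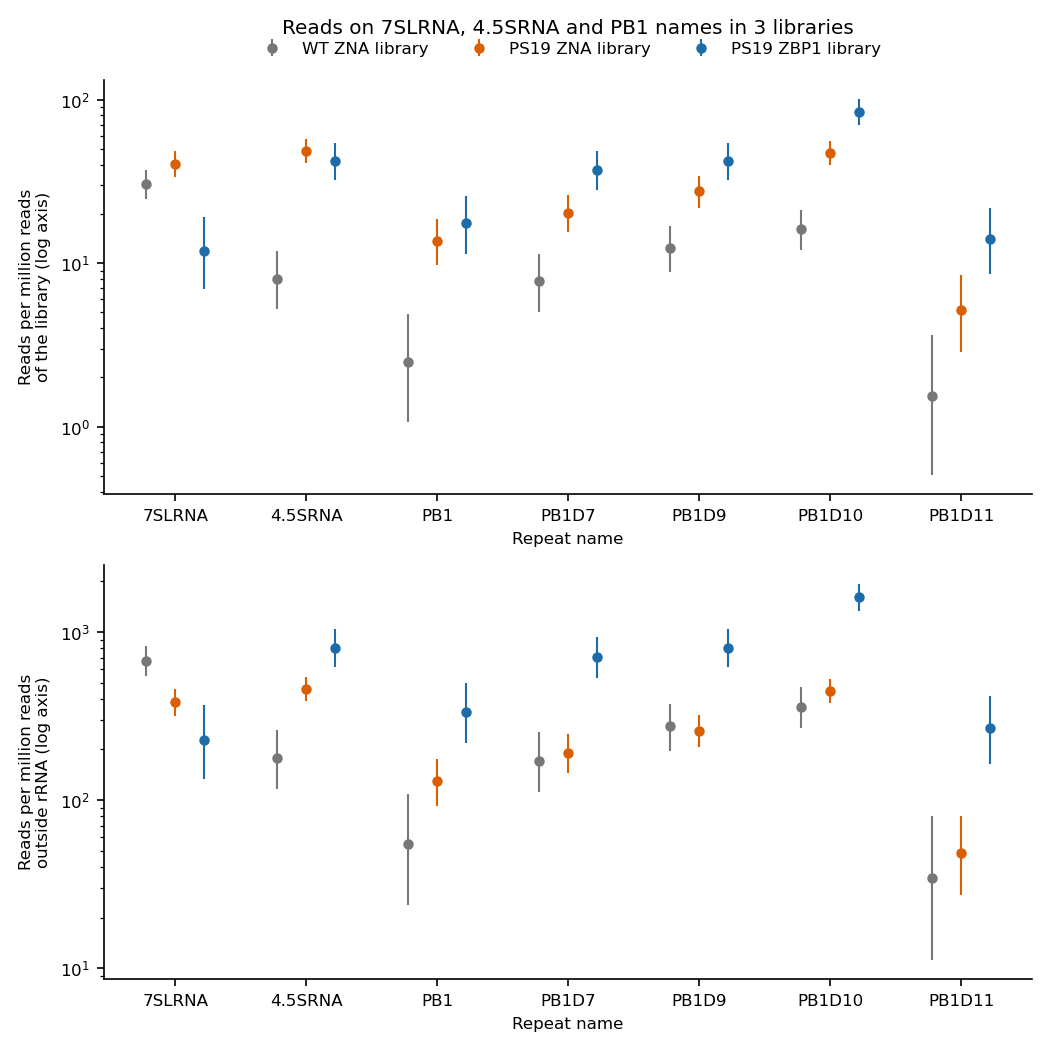
Reads on each of the 7 names in the WT (grey), PS19 ZNA (orange) and ZBP1 (blue) libraries, in CPM (upper panel) and in CPM outside rRNA (lower panel), both on log axes. Points are single libraries and bars exact 95% Poisson intervals of the count; the ZBP1 library is lowest for 7SLRNA on both scales and highest for the PB1 names on both.

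The first comparison set the PS19 against the WT library within the ZNA pull-down, which asks how genotype goes with the RNA brought down by the ZNA antibody. Per library total, 6 of the 7 members were higher in PS19 by 2-fold or more and 0 were lower by as much, on a log2 scale with a pseudocount of 1 CPM. Among all 713 names compared, 74.3% passed 2-fold upwards and 0.421% downwards, and the members' count lay near this background. The members' median log2 ratio was 1.28, beside 1.24 over all names. After scaling to the reads outside rRNA, 2 of the 7 (4.5SRNA and PB1) were at least 2-fold higher and 0 lower, where 3.52% of 711 names were higher and 2.39% lower. The members' median was then 0.31, beside 0.07 over all names.

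4.5SRNA had the largest fold between genotypes among the members. It was 6.05-fold higher in the ZNA library of PS19 per library total (3.96 to 9.58) and 2.57-fold higher per reads outside rRNA (1.68 to 4.07). Its log2 ratios of 2.46 and 1.30 ranked 7 of 713 and 16 of 711 names from the top, and both intervals lay above 1. They overlapped those of PB1 (2.56 to 13.7 and 1.09 to 5.83), so 4.5SRNA is not placed above PB1.

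7SLRNA stood at the other end. Per library total it was 1.33-fold higher in PS19 (1.01 to 1.76), which placed it 49 from the bottom of 713 names. With scaling to the reads outside rRNA its direction turned, and it was 1.76-fold lower in PS19 (1.33 to 2.32), at place 23 from the bottom of 711. On both scales 7SLRNA stood below most names in this ratio, and its sign depended on the scaling.

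The summed PB1 names were 2.83-fold higher in PS19 per library total (2.30 to 3.49) and 1.20-fold higher per reads outside rRNA (0.979 to 1.49), an interval that includes no difference. The B1 names, their descendants, were 2.42-fold higher (2.29 to 2.56) and 1.03-fold higher (0.974 to 1.09). Among the PB1 names, PB1 itself was 5.54-fold higher (2.56 to 13.7) per library total and 2.36-fold higher (1.09 to 5.83) per reads outside rRNA, on 40 and 8 reads. The other 4 ranged from 2.22-fold (PB1D9) to 3.32-fold (PB1D11) per library total. On the second scale they lay between 0.942-fold and 1.41-fold, and each interval included no difference.

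The lists of related names give the setting of these values. All 10 B1 names passed 2-fold upwards per library total, with log2 ratios of 1.01 to 1.56 and a median of 1.26. On the second scale 0 of the 10 passed 2-fold in either direction, and the median was 0.06. The 5 B2 and B3 names, SINEs derived from a tRNA, had medians of 1.30 and 0.07 on these scales, and the 3 ID and B4 names with enough reads had 1.31 and 0.08. The list of other small polymerase III RNAs holds 57 names of Y RNAs, 7SK, 5S, U6, BC1 and tRNAs. Only 4 had enough reads, none of them a 5S, U6 or tRNA name: HY1, HY3, 7SK and BC1_Mm. Their median was -0.49 by library total and -1.72 per reads outside rRNA, with 3 of the 4 at least 2-fold lower on the latter scale. On that scale 7SLRNA (-0.80) lay within the range of this list, from HY3 (-2.65) to BC1_Mm (-0.16), and below the lowest B1 name (B1_Mur1, -0.21), and 4.5SRNA (1.30) lay above the highest B1 name (B1F2, 0.36).

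Both pull-downs from PS19 were then compared, which asks how the RNA that came down with the sensor differs from that brought down by the ZNA antibody. It shares the PS19 ZNA library with the first comparison, so the ratios of both are not independent. Per library total, 1 of the 7 members (PB1D11) was at least 2-fold higher in the ZBP1 library and 1 (7SLRNA) at least 2-fold lower. Among all 682 names compared, 0.293% were higher and 50.1% lower by this limit. The members' median log2 ratio was 0.60, beside -1.002 over all names. After scaling to the reads outside rRNA, 5 of the 7, which were the 5 PB1 names, were at least 2-fold higher and 0 were lower, where 8.09% of 680 names were higher and 7.94% lower. The members' median was then 1.58, beside -0.05 over all names.

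The PB1 names stood near the top of all names in this comparison. Summed, they were 1.71-fold higher in the ZBP1 library per library total (1.46 to 2.02) and 3.47-fold higher per reads outside rRNA (2.95 to 4.08). Per library total PB1D11 ranked 2 of 682 names, PB1D7 5, PB1D10 7, PB1D9 13 and PB1 27. On the second scale PB1D11 was 5.53-fold higher (2.69 to 11.6), PB1D7 3.72-fold (2.52 to 5.49), PB1D10 3.60-fold (2.80 to 4.64), PB1D9 3.11-fold (2.19 to 4.40) and PB1 2.59-fold (1.51 to 4.38). The intervals of the 5 names overlapped, so no order among them is given.

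7SLRNA, the ancestor of these repeats, went the other way. It was 3.39-fold lower in the ZBP1 library per library total (2.03 to 6.01) and 1.68-fold lower per reads outside rRNA (1.003 to 2.97), on 17 and 118 reads. Its log2 ratio of -1.68 ranked 105 from the bottom of 682 names. On the second scale it was -0.71, and the interval of the ratio reached almost to no difference.

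4.5SRNA was 1.16-fold lower in the ZBP1 library per library total (0.849 to 1.59), an interval that includes no difference. Scaled to the reads outside rRNA its direction turned, and it was 1.75-fold higher (1.27 to 2.38). Its log2 ratio on that scale, 0.79, ranked 88 of 680 names, below all 5 PB1 names.

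Among the related lists, the 10 B1 names had median log2 ratios of 0.21 (library total) and 1.22 (reads outside rRNA), where 9 of the 10 were at least 2-fold higher. The highest B1 name was B1_Mur1 (0.46 and 1.47), and PB1D7, PB1D9, PB1D10 and PB1D11 lay above it on both scales. PB1 (0.33 and 1.28) lay within the B1 range. The B2 and B3 names had medians of 0.01 and 1.02, and the ID and B4 names -0.25 and 0.77. The 4 other small polymerase III RNAs had -2.27 and -1.28, from HY1 (-2.50 per reads outside rRNA) to BC1_Mm (-0.09). 7SLRNA lay within the range of this list, and 4.5SRNA and the PB1 names above it.

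**Figure D2:**
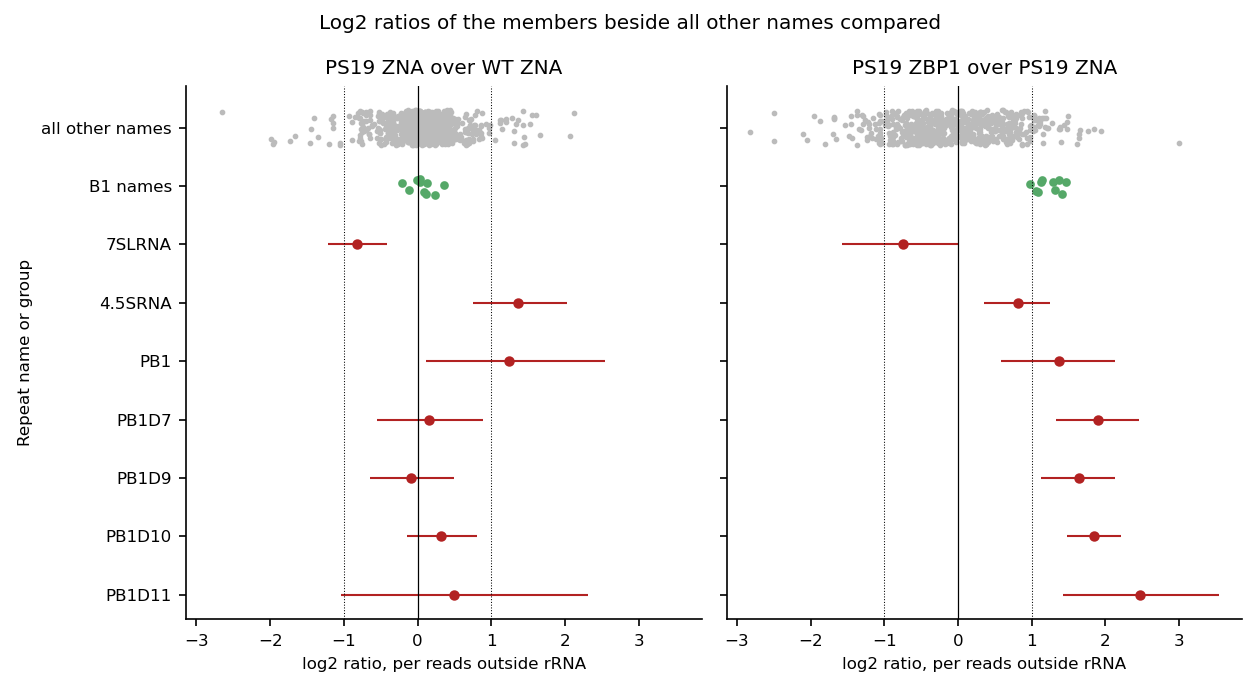
Log2 ratios per reads outside rRNA for PS19 over WT within the ZNA pull-down (left) and for ZBP1 over ZNA within PS19 (right). Red points are the 7 members with exact 95% counting intervals, drawn without a pseudocount; green points are the 10 B1 names and grey points all other names compared, with a pseudocount of 1. Vertical spread of the grey and green points carries no value, and dotted lines mark 2-fold; in the right panel the PB1 names lie to the right of 2-fold and 7SLRNA to the left of 0.

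Ratios of reads within a library need no scaling to a total, so the members were also set against the summed B1 names. Per 1000 reads on B1 names, 7SLRNA had 7.12 reads in the ZBP1 library (4.14 to 11.4), 29.1 in the ZNA library of PS19 (24.0 to 34.9) and 52.8 in the WT library (42.6 to 64.7). No 2 of these intervals overlapped. The ratio was 1.81-fold lower in PS19 than in WT within the ZNA pull-down (1.37 to 2.41), and 4.09-fold lower with ZBP1 than with ZNA in PS19 (2.44 to 7.27). Such a ratio also moves with its denominator. Per reads outside rRNA, the summed B1 names were 2.44-fold higher with ZBP1 than with ZNA in PS19 (2.32 to 2.57), and 7SLRNA was 1.68-fold lower. The 4.09-fold therefore holds both changes and is not the fold of 7SLRNA alone.

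4.5SRNA had 25.1 reads per 1000 reads on B1 names in the ZBP1 library (19.1 to 32.5), 35.0 in the ZNA library of PS19 (29.4 to 41.4) and 14.0 in the WT library (9.12 to 20.6). The ratio was 2.5-fold higher in PS19 than in WT (1.63 to 3.97). Between the pull-downs of PS19 it was 1.39-fold lower with ZBP1, with an interval of 1.02 to 1.92. Per reads outside rRNA 4.5SRNA itself was 1.75-fold higher with ZBP1, less than the 2.44-fold of the summed B1 names. Set against B2 and B3 names the ratio was 1.16-fold lower with ZBP1, and the interval (0.851 to 1.60) included no difference.

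The PB1 names had 116 reads per 1000 reads on B1 names in the ZBP1 library (102 to 132), 81.8 in the ZNA library of PS19 (73.0 to 91.5) and 70.0 in the WT library (58.1 to 83.7). Between the genotypes the ratio differed by 1.17-fold, with an interval of 0.944 to 1.45 that includes no difference. It was 1.42-fold higher with ZBP1 than with ZNA in PS19 (1.20 to 1.69). The ratio of reads on proto-B1 names to reads on their B1 descendants was thus higher in the ZBP1 library than in the ZNA libraries.

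Set against PB1 directly, there were 0.0612 reads on 7SLRNA per PB1 read in the ZBP1 library (0.0351 to 0.0997), 0.355 in the ZNA library of PS19 (0.286 to 0.440) and 0.754 in the WT library (0.574 to 0.987). The ratio was 5.81-fold lower with ZBP1 than with ZNA in PS19 (3.37 to 10.6) and 2.12-fold lower in PS19 than in WT (1.49 to 3.01). The 5.81-fold also holds the change of the PB1 names. Per reads outside rRNA, their sum was 3.47-fold higher with ZBP1 than with ZNA in PS19, and 7SLRNA was 1.68-fold lower. There were 0.283 reads on 7SLRNA per read on 4.5SRNA in the ZBP1 library (0.155 to 0.492), 0.831 in the ZNA library of PS19 (0.645 to 1.07) and 3.77 in the WT library (2.43 to 6.05). 7SLRNA had more reads than 4.5SRNA in the WT library and fewer in the ZBP1 library, while in the ZNA library of PS19 the interval included equal numbers. Lengths were not part of the tables, so this is an order of read counts and not of levels.

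**Figure D3:**
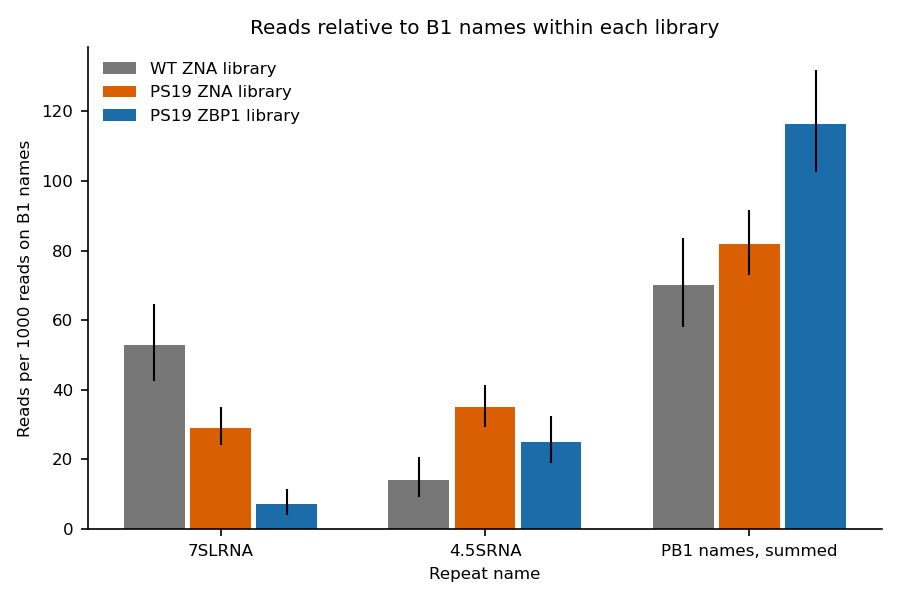
Reads on 7SLRNA, 4.5SRNA and the summed PB1 names per 1000 reads on the 10 B1 names, in the WT (grey), PS19 ZNA (orange) and ZBP1 (blue) libraries. Bars are single libraries and lines exact 95% intervals of counting error; 7SLRNA stands at 52.8, 29.1 and 7.12 in these libraries, 4.5SRNA is lowest in WT (14.0), and the PB1 names are highest with ZBP1 (116).

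The ZBP1 and WT libraries differ in genotype and in antibody, which cannot be told apart between them, so no ratio of this pair is given. Names with the most similar course over the 3 libraries were found by the distance between log2 CPM profiles, each centred on its own mean, among 461 other names that averaged 10 CPM or more. For 7SLRNA they were RLTR16C_MM, a retroviral LTR name with 5, 44 and 38 reads in the ZBP1, PS19 ZNA and WT libraries at a distance of 0.16, the spliceosomal RNA U5 with 19, 153 and 96 reads (0.28) and the LTR name RLTR10A (0.31), against a median distance of 1.11. For 4.5SRNA they were the nucleolar RNA U3, with 29, 93 and 15 reads (0.31), the simple repeat (AC)n (0.33) and the DNA transposon Charlie8 (0.53), against a median of 1.47. For the summed PB1 names they were the simple repeat (TG)n (0.25), B1_Mur2 with 183, 282 and 112 reads (0.31) and the LTR name LTR16C (0.36), against a median of 1.61. These distances rest on 3 libraries and describe them only.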

How the data were processed

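The authors deposited raw read counts per repeat name, 1 table per library, per the file headers and the whole-number values. Trim Galore 0.6.5, STAR 2.5.3a, featureCounts 2.0.4 and build mm39 are named in the submitters' processing notes. The repeat annotation, the strand setting and the treatment of reads with many matches are not given in the sources used here, and these choices move reads between related names. Groups came from the sample titles.

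CPM was computed over all names, and a second scale used the reads outside LSU-rRNA_Hsa and SSU-rRNA_Hsa. A name was compared from a mean of 1 CPM and 20 reads over both libraries upwards; all 7 members passed in both comparisons. Log2 ratios used a pseudocount of 1 CPM (on the second scale, with library sizes brought to the same mean), which understates changes of low names, and folds with intervals used none. Intervals of ratios are exact conditional 95% intervals, those of levels exact Poisson intervals and those of shares Wilson intervals, all covering counting error only. With 1 library per group, no model such as edgeR's was fitted, and no p-value is printed. All 7 members are named throughout. Other names were compared as lists (B1, B2 and B3, ID and B4, small polymerase III RNAs), and the 3 names most alike each pattern were named by distance. The members and lists were chosen with earlier results of these data known. Alternatives were TMM scaling, leaving out the filter or raising it to 10 CPM, pseudocounts of 0.1 and 5, limits of 1.5-fold and 4-fold, and B2 and B3 names in place of B1. TMM factors came from edgeR 4.0.16 in R 4.3.3, and all else from Python 3.11.15 with scipy 1.17.1, pandas 2.3.3, numpy 2.4.6 and matplotlib 3.10.9.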

Additional observations from a re-analysis of the deposited data

How the results depend on the processing

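Scaling, the pseudocount, the filter and the fold limit all moved counts of members. For PS19 over WT in the ZNA pull-down, the 6 members at least 2-fold higher became 2 per reads outside rRNA, 2 under TMM, 3 with a pseudocount of 5 and 2 at a 4-fold limit. For ZBP1 over ZNA in PS19, the 1 higher member became 5 per reads outside rRNA, 5 under TMM and 4 at 1.5-fold. The count became 0 with a pseudocount of 5 or a 4-fold limit. With a mean of at least 10 CPM it was also 0, because PB1D11 no longer passed the filter and 6 members were compared. The same filter left 5 members for PS19 over WT, of which 4 were at least 2-fold higher. In ZBP1 over ZNA, the 1 lower member became 0 per reads outside rRNA, under TMM and at 4-fold. Log2 ratios changed sign per reads outside rRNA and under TMM for 7SLRNA (-0.80 and -0.79) and PB1D9 (-0.082 and -0.073) in PS19 over WT, and for 4.5SRNA in ZBP1 over ZNA (0.79 and 0.63). By construction both scalings remove most of the shift shared by names outside rRNA. Of 64 recomputed log2 ratios, 35 stayed within the counting interval of the ratio, 23 moved beyond it with the same sign and 6 changed sign. Most that stayed came from the pseudocounts: 16 of 16 with 0.1 and 15 of 16 with 5. Per reads outside rRNA, 2 of 16 stayed, 11 moved beyond the interval and 3 changed sign, and TMM gave the same counts.

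Per 1000 reads on B2 and B3 names in place of B1, the ZBP1, PS19 ZNA and WT libraries had 2.72, 9.27 and 17.1 reads on 7SLRNA, 9.62, 11.2 and 4.53 on 4.5SRNA, and 44.6, 26.1 and 22.7 on PB1 names, with the libraries in the same order as per B1 reads. For 4.5SRNA the difference between the pull-downs of PS19 was then 1.16-fold lower with ZBP1, with an interval of 0.851 to 1.60 that includes no difference, against 1.39-fold per B1 reads. With 1 library per group, none could be left out. No paired analysis was possible because each group has 1 library. Depth limits PB1D11 most (20, 15 and 5 reads), and 7SLRNA in the ZBP1 library (17 reads).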
